A study of Mus musculus with 9 samples.

Results

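Genes of antibody-producing cells and of antibody export were followed in the submandibular salivary gland of the mouse after irradiation. The set was given as a list of 10 genes, grouped by what they encode and chosen with earlier results of these data known. It holds the antibody heavy chain constant genes Igha and Ighm, the light chain constant gene Igkc and the joining chain gene Jchain. The others are the plasma cell and B cell genes Mzb1, Cd79a, Cd79b, Tnfrsf17 and Pou2af1, and the epithelial immunoglobulin transporter gene Pigr. All 10 were found by symbol among the 54532 gene identifiers of the table. Of these, 7 passed the filter on low counts, and Cd79a, Cd79b and Tnfrsf17 did not. The tissue came from wild-type mice given 10 Gy of radiation and was collected 30, 60 or 90 days later, with 3 libraries per time point. All 9 libraries came from irradiated glands, and glands without irradiation, which the labels' protocols mention, were not analysed here. RNA was taken from 4 tissue sections of 50 µm each and made into mRNA sequencing libraries. The labels give neither the age of the mice, nor whether each library is a separate animal, so time after irradiation and age cannot be told apart, and the p-values measure the spread between these libraries.

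Salivary glands are mucosal tissues that export antibody into saliva. Plasma cells in the connective tissue between acini and ducts secrete mainly IgA, joined into dimers by the J chain. The polymeric immunoglobulin receptor, encoded by Pigr, sits on the basal side of the epithelial cells, binds J chain-containing IgA or IgM, carries it across the cell and releases it into saliva with a fragment of the receptor attached. The antibody genes therefore report on plasma cells and Pigr on the epithelium. In bulk tissue, fewer cells of a type and less RNA per cell cannot be told apart.

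The 9 libraries held between 16541396 and 26065856 counts, with the 30-day libraries the shallowest. Levels are given as CPM, the count relative to the scaled total of its library. Taking 3 counts as the floor puts it at 0.101 to 0.213 CPM. This floor and the intervals given for shares cover counting error only, because the reads were amplified and carry no molecular identifiers. The gland was checked by its epithelial markers Epcam, Krt7, Krt19, Aqp5 and Bhlha15, which summed to between 17288 and 31496 counts per library. The 90-day sample 2 stood apart in lymphoid genes. Among B cell markers, it had 39 counts of Ms4a1, against 0 to 3 in each of the other 8 libraries, 47 of Cd22, against 1 to 17, and 18 of Pax5, against 0 to 1. Its T cell markers Cd3d, Cd3e, Cd3g and Trbc2 summed to 200 counts, against 12 to 67. The lymph node stroma markers Glycam1, Ccl19, Ccl21a and Cxcl13 summed to 30 counts in it, against 0 to 6 in each of the other 8. Cxcl13 gave 27 of these 30, Glycam1 2, Ccl19 1 and Ccl21a 0. Results of the main edgeR fit that rest on this library are given with and without it. Values from the other settings include it unless stated, and DESeq2 was not run without it.

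Pigr was the member whose difference between time points passed the test. The 30-day libraries measured 151, 134 and 114 CPM, the 60-day libraries 237, 226 and 174 CPM, and the 90-day libraries 333, 279 and 287 CPM. The 3 time points did not overlap, and every library of a later time point lay above every library of an earlier one. Mean levels in time order were 133 ± 18.7, 212 ± 33.8 and 300 ± 29.6 CPM (SD of 3 libraries). From 30 to 90 days Pigr rose by 1.17 ± 0.13 (log2 fold change and its SE, edgeR adjusted p = 0.000165), and the call held in all 17 alternative analyses, with adjusted p-values between 2.86e-21 and 0.00141. Without the 90-day sample 2 the value was 1.22 ± 0.15 (adjusted p = 0.000557). The earlier step, from 30 to 60 days, measured 0.68 ± 0.13 and also passed (adjusted p = 0.0131). That call was lost without 30-day sample 2 (0.68, adjusted p = 0.0642), without 30-day sample 3 (0.57, adjusted p = 0.0771) and without 60-day sample 2 (0.63, adjusted p = 0.101), within a range of 5.52e-07 to 0.101 over the alternatives. The step from 60 to 90 days, 0.50 ± 0.13 (SE), did not pass (adjusted p = 0.149, with a range of 0.00294 to 0.418 over the alternatives), but it passed with same-numbered libraries blocked (0.51, adjusted p = 0.0362), with library-size scaling (0.69, adjusted p = 0.0267), with DESeq2 (0.49, adjusted p = 0.0433) and with no filter (0.49, adjusted p = 0.00294). The test of any difference among time points gave an adjusted p of 0.000277.

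Pigr was therefore the 1 member of 10 called between 60 and 30 days, where 1.56% of all 15224 genes tested were called. It was also the 1 member called between 90 and 30 days, where 3.57% of genes were, and in the test of any difference, where 3.29% were. Between 90 and 60 days 0 members were called by edgeR, where 0.256% of genes were. At an unadjusted p under 0.05 all 7 tested members passed in that step, each of them higher at 90 days, where 10.8% of genes passed in either direction. Without 90-day sample 2, 6 of the 7 passed in this way, where 1068 of 15399 genes did. Mzb1 and Pou2af1 reached 10 counts mostly in 90-day libraries. They may have passed the filter through that group, so their direction is not independent support. With all 9 libraries, DESeq2 called 4 members between 90 and 60 days, namely Igha, Igkc, Jchain and Pigr (1.17% of the genes it gave an adjusted p). It called 3 between 90 and 30 days (6.17%) and 5 for any difference (5.79%). Without 90-day sample 2, edgeR called 1 member between 60 and 30 days (1.47% of genes), 1 between 90 and 60 days (0.104%), 2 between 90 and 30 days (1.23%) and 2 for any difference (1.58%), which were Pigr and Jchain.

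Pigr lies on chromosome 1 from 130826684 to 130852249 on the plus strand (GRCm38). The 250 bases before its start, chr1:130826434-130826683 in GRCm38.p6 from RefSeq, have the E-box letters CACGTG in capitals. They are shown because edgeR with all 9 libraries called this member alone. The same window of Jchain, chr5:88527898-88528147 on the minus strand, is shown for comparison and holds no such letters. Jchain too was higher in all 90-day libraries than in all 30-day ones, so it is not an unchanged gene.
Pigr: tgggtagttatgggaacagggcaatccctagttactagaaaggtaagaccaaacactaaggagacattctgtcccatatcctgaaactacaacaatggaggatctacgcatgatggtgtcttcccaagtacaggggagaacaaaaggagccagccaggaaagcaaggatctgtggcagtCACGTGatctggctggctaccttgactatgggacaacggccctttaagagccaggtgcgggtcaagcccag
Jchain: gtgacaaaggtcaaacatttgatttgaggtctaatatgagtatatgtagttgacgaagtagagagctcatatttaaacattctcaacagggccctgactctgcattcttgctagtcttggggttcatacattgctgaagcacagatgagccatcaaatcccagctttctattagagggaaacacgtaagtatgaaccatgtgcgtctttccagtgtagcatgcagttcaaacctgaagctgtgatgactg

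The E-box CACGTG, which reads the same on both strands, began 71 bases before the Pigr start. Of 32851 windows of this length in the RefSeq table, 6.02% hold it. Among the 5 members with a window in that table (Jchain, Pigr, Cd79a, Tnfrsf17 and Pou2af1), it occurred in Pigr. On either strand, the octamer ATGCAAAT, the letters bound by the Oct factors that the Pou2af1 product assists, occurred in none of these 5 windows and in 1.60% of all windows. A consensus NF-kB site occurred in none of the 5 and in 0.14% of all windows, and a consensus interferon response element in Tnfrsf17 and in 2.98% of all. A match describes the letters only.

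**Figure D1:**
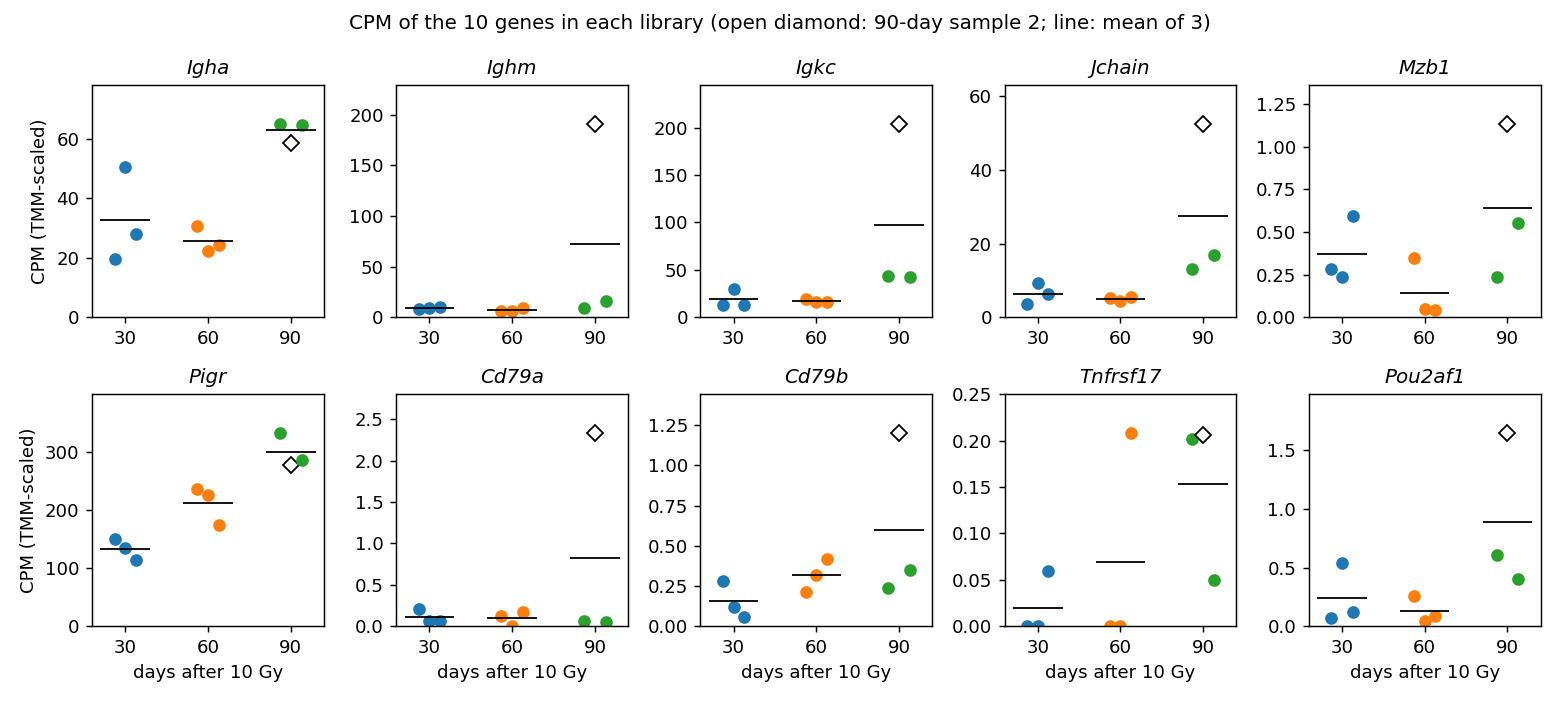
CPM after TMM scaling (y axis, from 0) of each of the 10 genes in the 9 libraries by days after 10 Gy (x axis). Points are libraries, lines are means of 3, and the open diamond is 90-day sample 2, which stands far above the other libraries for Ighm, Igkc, Jchain and Cd79a but not for Igha or Pigr.

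Igha encodes the constant region of the IgA heavy chain (ENSMUSG00000095079, chromosome 12, 113254830 to 113260236, minus strand). Its 30-day libraries measured 19.6, 50.4 and 28.0 CPM, those of 60 days 30.5, 22.2 and 24.3, and those of 90 days 65.1, 58.7 and 64.7. All 90-day libraries lay above all earlier ones, and 90-day sample 2 was the lowest of its group. The means were 32.6 ± 15.9, 25.7 ± 4.32 and 62.8 ± 3.57 CPM (SD of 3 libraries). On the log2 scale the difference of 90 from 60 days was 1.29 ± 0.31 (adjusted p = 0.219) and that of 90 from 30 days 0.94 ± 0.31 (adjusted p = 0.172), so neither passed. The highest early library was 30-day sample 2. Without it the changes were 1.29 (adjusted p = 0.00036) and 1.40 (adjusted p = 0.000687). The adjusted p-values ran from 0.000168 to 0.549 over the alternatives for the step from 60 to 90 days, which also passed without 30-day sample 1 (1.29, adjusted p = 0.0107), with DESeq2 (1.28, adjusted p = 0.028) and in a fit of those 6 libraries alone (1.28, adjusted p = 0.000168). They ran from 0.000687 to 0.356 from 30 to 90 days. Without the 90-day sample 2 the changes were 1.33 (adjusted p = 0.492) and 0.98 (adjusted p = 0.356).

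Ighm encodes the constant region of the IgM heavy chain (chromosome 12, 113418558 to 113422730, minus strand). Its 30-day libraries measured 8.08, 9.04 and 10.2 CPM and its 60-day libraries 6.0, 5.70 and 8.76. At 90 days the libraries measured 9.10, 191 and 15.5 CPM, so the mean of 71.9 ± 103 CPM was set by sample 2 and was 12.3 CPM without it. That library was 15.5 times the mean of the other 90-day libraries for Ighm, and 0.905 times that mean for Igha. The log2 difference of 90 from 60 days was 3.40 ± 1.24 (adjusted p = 0.422) with sample 2 and 0.83 ± 0.23 (adjusted p = 0.311) without it. From 30 to 90 days it was 2.98 ± 1.23 (adjusted p = 0.298) with it and 0.41 ± 0.23 (adjusted p = 0.539) without. Neither passed in any alternative, with adjusted p-values of 0.0593 to 0.711, while DESeq2 called Ighm for any difference (adjusted p = 0.0263, in a range of 0.0263 to 0.723).

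Jchain encodes the small protein that links IgA into dimers and IgM into pentamers, and which the Pigr product recognises (chromosome 5, 88519809 to 88527891, minus strand). The J chain is bonded to a tail that secreted IgA and IgM heavy chains carry and IgG lacks. The last 54 coding bases of the secreted transcripts, on the minus strand of chromosome 12 in GRCm38 (GENCODE), are shown because they mark the heavy chains Jchain and Pigr can serve. The capitals mark the next-to-last codon, that of the cysteine to which the J chain is bonded.
Igha, chr12:113258771-113258824: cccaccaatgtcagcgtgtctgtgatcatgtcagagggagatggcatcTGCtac
Ighm, chr12:113420870-113420923: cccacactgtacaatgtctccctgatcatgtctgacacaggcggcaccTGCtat

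These tails are identical at 35 of 54 bases (64.8%), and the cysteine codon is TGC in each. For Jchain the 30-day libraries measured 3.47, 9.27 and 6.28 CPM, the 60-day ones 5.22, 4.34 and 5.42, and the 90-day ones 13, 52.6 and 16.9. The 90-day libraries lay above all others, and sample 2 was again the highest. On the log2 scale 90 days differed from 60 days by 2.46 ± 0.63 (adjusted p = 0.275) and from 30 days by 2.11 ± 0.64 (adjusted p = 0.163). Without the 90-day sample 2 the changes were smaller and their errors were too, at 1.57 ± 0.28 (adjusted p = 0.0459) and 1.22 ± 0.28 (adjusted p = 0.0477), so both passed. Over the alternatives the adjusted p-values ran from 0.00827 to 0.633 and from 0.0133 to 0.444. Jchain also passed with DESeq2 on all 9 libraries (2.45, adjusted p = 0.00827, and 2.11, adjusted p = 0.0133).

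Antibody heavy chain and J chain counts were also set against each other within each library. There were 3.83 to 5.84 Igha counts per Jchain count in the other 8 libraries and 1.12 in 90-day sample 2. With Igha and Ighm counted together, sample 2 gave 4.76 counts per Jchain count, beside 4.74 in 90-day sample 3 and up to 7.96 in 30-day sample 1. Sample 2 was therefore the lowest for Igha alone and not for the sum.

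Igkc encodes the constant region of the kappa light chain, used by most mouse antibodies of every class (chromosome 6, 70726435 to 70726966, plus strand). Its 30-day libraries measured 13, 30.3 and 13.2 CPM, those of 60 days 18.9, 16.3 and 16.2, and those of 90 days 43.3, 204 and 42.8. The 90-day libraries lay above all others, also when sample 2 is set aside. On the log2 scale 90 days differed from 30 days by 2.36 ± 0.76 (adjusted p = 0.188), or 1.18 ± 0.34 without sample 2 (adjusted p = 0.213). The difference from 60 days was 2.50 ± 0.75 (adjusted p = 0.327), or 1.32 ± 0.34 without sample 2 (adjusted p = 0.422). DESeq2 called both (adjusted p = 0.018 and 0.0348), the lowest values in ranges of 0.018 to 0.49 and 0.0348 to 0.67. Igkc counts were 0.339 to 0.578 of the summed heavy chain constant counts in the other 8 libraries and 0.581 of them in sample 2.

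Per kilobase of exon, Igkc and Pigr stood highest at 30 days, with 35.4 ± 18.6 and 33.0 ± 4.65 CPM per kilobase (SD of 3 libraries), which do not differ beyond their spread. Igha followed with 12.2 ± 5.96, Ighm with 4.84 ± 0.574 and Jchain with 2.52 ± 1.15 CPM per kilobase. At 90 days the order was Igkc (182 ± 175), Pigr (74.4 ± 7.35), Ighm (38.1 ± 54.8), Igha (23.6 ± 1.34) and Jchain (10.9 ± 8.65), and the spread of Igkc and Ighm, which comes from sample 2, covers their neighbours. Without sample 2 the 90-day means were 80.9 for Igkc, 77.0 for Pigr, 24.3 for Igha, 6.53 for Ighm and 5.95 for Jchain, so Igha then stood above Ighm. Exon lengths here join all annotated transcripts, so a level is understated where long annotated exons are little used.

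The classes of heavy chain were compared within each library, which needs no scaling between libraries. Igha made up 69.3% of heavy chain constant counts in 30-day sample 1 (95% Wilson interval 64.7% to 73.7%), 83.5% in sample 2 (81.1% to 85.7%) and 72.0% in sample 3 (68.4% to 75.3%). At 60 days the shares were 83.0% (80.3% to 85.4%), 78.3% (74.9% to 81.4%) and 72.8% (69.6% to 75.8%). At 90 days they were 86.8% (85.4% to 88.2%) in sample 1, 16.7% (16.0% to 17.4%) in sample 2 and 78.8% (76.8% to 80.7%) in sample 3. IgA was thus the leading class in all libraries but 90-day sample 2, where Ighm took 54.4%, Ighg2c 14.8% and Ighg2b 12.6%. The mean shares were 75.0% ± 7.54, 78.0% ± 5.11 and 60.8% ± 38.4 (SD, n = 3 each), and time point did not separate them (exact permutation test over 280 partitions, one-sided p = 0.896, where the smallest possible is 0.00357). Without 90-day sample 2 the 90-day mean was 82.8% and the direction against 30 days turned (exact permutation p = 0.421).

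**Figure D2:**
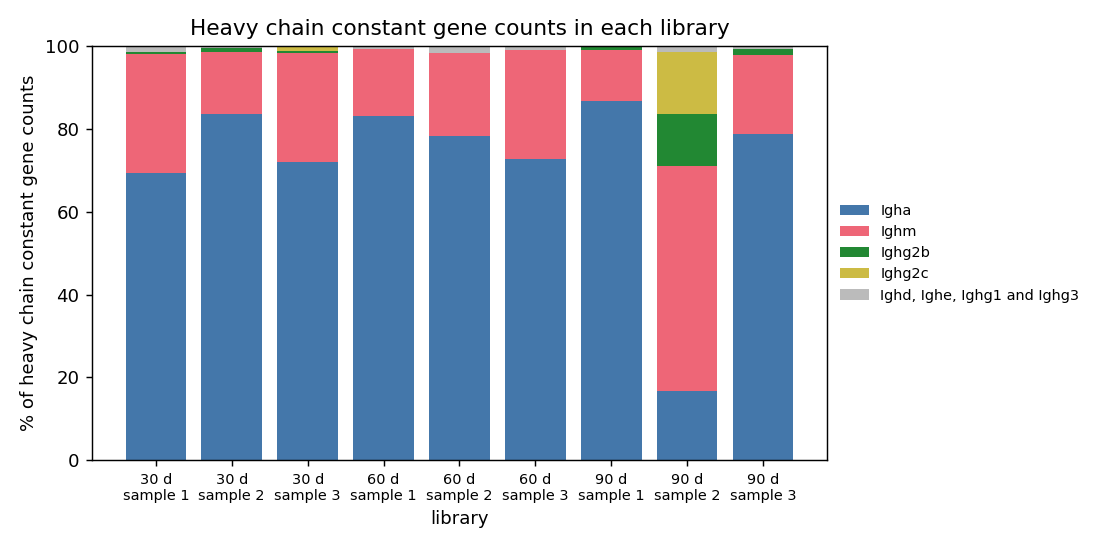
Share of heavy chain constant gene counts (y axis, percent) taken by each gene in each of the 9 libraries (x axis). Igha takes between 69.3% and 86.8% of the bar in 8 libraries and 16.7% in 90-day sample 2, where Ighm, Ighg2c and Ighg2b take most of the rest.

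IgG classes had few counts outside that library. Ighg2b stood above the floor of 3 counts in 30-day sample 2, with 9, and in 90-day samples 1 and 3, with 17 and 23. Ighg2c had 1514 counts in 90-day sample 2 and 0 to 7 in the others. Ighg2b had 1289 counts there and 0 to 23 in the others, and Ighg3 had 122 there and 0 to 9 elsewhere. Ighg1 had 2 counts, both in that library, and Ighe had 0 in all 9. Ighg2b passed the test of any difference without 90-day sample 2 (adjusted p = 0.0343) and not with it (adjusted p = 0.204), on counts of 0, 0 and 1 at 60 days. IgG genes resemble each other, so reads could be split between them: 5.49% of the 50-base words in Ighg2c transcripts also occur in Ighg2b transcripts. Igha, Ighm and Igkc share 0 such words with the other constant genes compared.

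Kappa was the main light chain in all 9 libraries. Igkc made up 96.0% to 99.5% of light chain constant counts, with means of 97.2% ± 1.95, 98.5% ± 0.599 and 98.1% ± 0.896 in time order (SD of 3 libraries). Time point did not separate these shares (exact permutation test, one-sided p = 0.489). In 90-day sample 2 the share was 98.3% (Wilson interval 97.9% to 98.6%), inside the range of the other libraries although its light chain counts were the highest, at 6044.

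Each plasma cell clone joins 1 variable gene to its constant gene, so counts of variable genes show which ones the antibody transcripts use. Heavy chain variable genes summed to 38 to 288 counts in the other 8 libraries and 1292 in 90-day sample 2. In 30-day sample 2, Ighv1-80 alone held 91 of 146 such counts, or 62.3% (Wilson interval 54.3% to 69.8%). The same gene led in 90-day sample 2 with 333 of 1292 counts, or 25.8% (23.5% to 28.2%), and had 0 to 2 counts in the other 7 libraries. Ighv1-9, the next most counted, had 301 counts in 90-day sample 2 and 0 to 2 elsewhere. Apart from Ighv1-80, no heavy variable gene led in more than 1 library: Ighv1-76 and Ighv1-15 led in the other 30-day libraries, Ighv2-3, Ighv1-59 and Ighv1-53 at 60 days, and Ighv10-1 and Ighv1-82 in the other 90-day libraries. Counts were spread over 10 to 28 of the 185 heavy variable genes in the other 8 libraries and over 43 in 90-day sample 2. The number detected went with the summed counts, with 10 genes at 38 counts in 30-day sample 1 and 28 at 288 in 90-day sample 1. It therefore cannot be read apart from the number of counts.

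Kappa variable genes summed to 52 to 456 counts in the other 8 libraries and 1956 in 90-day sample 2, where 61 of 160 genes were detected and the leader, Igkv1-99, held 301 counts, or 15.4% (Wilson interval 13.9% to 17.1%). Igkv1-99 had 0 counts in each of the other 8 libraries. Igkv9-120 was counted in 7 libraries, with 35, 5 and 56 counts at 60 days and 60, 17 and 10 at 90 days. The number of kappa genes detected also went with the summed counts, with 9 genes at 52 counts in 30-day sample 1. Variable genes are close paralogs, so the values of single ones are uncertain.

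The remaining members are genes of plasma cells and B cells at levels near the floor. Mzb1, which encodes an endoplasmic reticulum protein that helps assemble IgM and IgA, had 4, 4 and 10 counts at 30 days, 8, 1 and 1 at 60 days, and 7, 33 and 11 at 90 days. Its time points overlapped, and 90 days differed from 30 days by 0.77 ± 0.74 on the log2 scale (adjusted p = 0.674), or by 0.03 without 90-day sample 2 (adjusted p = 0.997). Pou2af1, whose product is a coactivator of Oct factors at antibody gene promoters, had 1, 9 and 2 counts, then 6, 1 and 2, then 18, 48 and 8. In CPM its 90-day libraries, at 0.607, 1.65 and 0.402, lay above all 60-day ones but not above 30-day sample 2 at 0.535. The log2 difference of 90 from 60 days was 2.74 ± 0.79 (adjusted p = 0.202), or 1.92 without 90-day sample 2 (adjusted p = 0.718). With no filter it passed (2.73, adjusted p = 0.0306), in a range of 0.0306 to 0.718.

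Cd79a and Cd79b encode the signalling partners of membrane antibody on B cells. Cd79a had 68 counts in 90-day sample 2 and 0 to 4 counts in each other library. In a fit without the filter 90 days differed from 30 days by 2.92 ± 0.87 on the log2 scale (adjusted p = 0.0266), and -0.79 without that library (adjusted p = 0.972). From 60 to 90 days the values were 2.98 (adjusted p = 0.0311) and -0.69 (adjusted p = 0.985). Cd79b had 35 counts in 90-day sample 2 and 1 to 10 elsewhere, and its change from 30 to 90 days, 1.98 ± 0.85, did not pass (adjusted p = 0.245, and 0.94 without that library, adjusted p = 0.828). Tnfrsf17 encodes BCMA, a survival receptor of plasma cells. It had 0, 0 and 1 counts at 30 days, 0, 0 and 5 at 60 days, and 6, 6 and 1 at 90 days, and the groups overlapped.

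**Figure D3:**
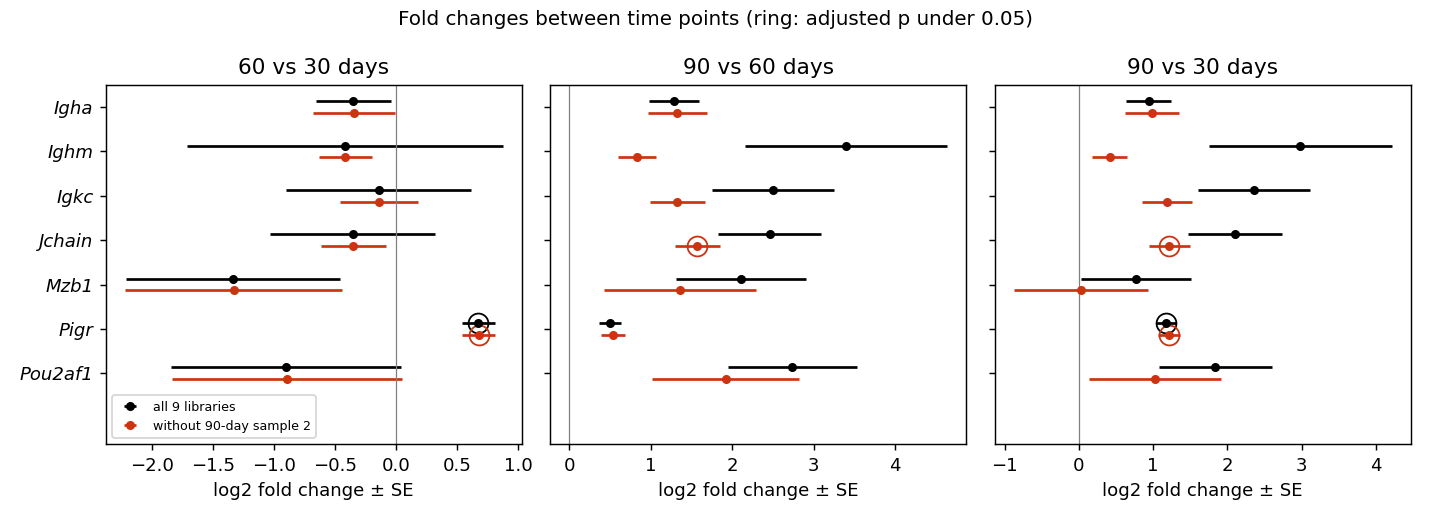
Log2 fold change ± SE (x axis) of the 7 tested members (y axis) for each pair of time points, with all 9 libraries in black and without 90-day sample 2 in red, and rings where the adjusted p is under 0.05. Pigr and Igha barely move when the library is left out, while the Ighm change from 60 to 90 days falls from 3.40 to 0.83 on the log2 scale.

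Counted over all 10 members, the 3 libraries of 90 days lay wholly above those of 60 days for 6, namely Igha, Ighm, Igkc, Jchain, Pigr and Pou2af1, where 8.3% of all tested genes did. They lay wholly above those of 30 days for 4, namely Igha, Igkc, Jchain and Pigr, where 11.4% of genes did. From 30 to 60 days Pigr alone did, where 8.65% of genes did. Plasma cells use the antibody genes together, so these are not separate observations.

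Genes that act around the members were read from lists. Of 22 genes of the plasma cell program, which the acinar cells of the gland also use for their own secretion, 22 were tested. From 30 to 90 days Creld2, an endoplasmic reticulum stress gene, rose (log2 fold change 0.57 ± 0.13, adjusted p = 0.0171), while Derl3 and Tent5c fell, with -0.41 ± 0.11 (adjusted p = 0.0373) and -0.48 ± 0.11 (adjusted p = 0.0183). Without 90-day sample 2, 0 of the 22 passed in that comparison, and these genes measured 0.46, -0.38 and -0.46 (adjusted p = 0.122, 0.178 and 0.101). Ell2, an elongation factor that favours the secreted form of the heavy chain in plasma cells, rose from 30 to 60 days by 0.45 ± 0.11 (adjusted p = 0.0407, and 0.0421 without that library). The most abundant genes of the list, Xbp1 at 395 ± 34.0 and 351 ± 18.1 CPM at 30 and 90 days and Herpud1 at 359 ± 102 and 264 ± 18.9 CPM (SD of 3 libraries), did not pass (adjusted p = 0.507 and 0.125). The median log2 fold change of the list from 30 to 90 days was -0.02, beside 0.01 over all genes.

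The list of IgA plasma cell recruitment, survival and class switch held 24 genes, of which 18 were tested. Vcam1, an adhesion molecule for entering lymphocytes, rose from 30 to 90 days (log2 fold change 1.10 ± 0.28, adjusted p = 0.0438), and measured 0.76 without 90-day sample 2 (adjusted p = 0.159). Ccl28, the epithelial chemokine that draws IgA plasma cells to salivary glands, measured 213 ± 48.4, 175 ± 32.8 and 173 ± 17.3 CPM in time order (SD of 3 libraries). Its change from 30 to 90 days, -0.30 ± 0.16, did not pass (adjusted p = 0.389). Itgb1, the other most abundant gene of the list, changed by 0.17 ± 0.10 (adjusted p = 0.391). The list's median from 30 to 90 days was 0.17, and 0.01 without that library.

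For Pigr, a list of its inducers and of transcytosis genes held 28, of which 26 were tested. From 30 to 90 days Il17rc, a subunit of the interleukin-17 receptor, and Exoc4, a subunit of the exocyst, fell, with -0.52 ± 0.13 (adjusted p = 0.0278) and -0.58 ± 0.12 (adjusted p = 0.00926). Without 90-day sample 2 they measured -0.57 and -0.56 and did not pass (adjusted p = 0.0720 and 0.0514). None was called higher in any pair of time points by edgeR with all 9 libraries. From 30 to 90 days 13 of the 26 had a positive log2 fold change and 13 a negative one. The E-box binding factors Usf1 and Usf2 changed by -0.09 ± 0.15 (adjusted p = 0.828) and -0.26 ± 0.12 (adjusted p = 0.292). Ifng had 0 to 4 counts per library, Il17a had 0 in all 9, and Tnf had 3 to 24. Myd88, of the same list, measured 6.45, 8.738 and 9.235 CPM at 30 days and 10.38, 12.72 and 9.989 CPM at 90 days. Its 90-day libraries thus lay above its 30-day ones, although it was not called. These genes, Usf1 and Usf2 were picked after their values were seen, so they do not show whether the inducers changed as a set. The most abundant genes of the list, Rab3d and Ap1m2, changed by -0.34 ± 0.12 (adjusted p = 0.147) and -0.02 ± 0.09 (adjusted p = 0.957). The list's median was 0.00, where Pigr itself measured 1.17.

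Epithelial genes gave the level beside which Pigr is read. Of 16 genes of salivary epithelium, edgeR called 1 between 30 and 90 days, which was lower, while 11 had a positive log2 fold change. An unadjusted p under 0.05 in either direction was found for 7 of the 16, and for 2560 of all 15224 genes tested. The list's median was 0.10. Aqp5, the acinar water channel gene, fell in that comparison (-0.57 ± 0.12, adjusted p = 0.0113), and measured -0.53 without 90-day sample 2 (adjusted p = 0.0721). Bhlha15, a transcription factor of secretory cells, fell between 60 and 90 days (-0.78 ± 0.12, adjusted p = 0.00581), and measured -0.70 without that library (adjusted p = 0.0620). From 30 to 60 days 0 of 16 passed (3 at an unadjusted p under 0.05, as for 1883 of all 15224 genes). Slc12a2, the most abundant of the list, measured 1240 ± 240 CPM in the 30-day libraries and 911 ± 41.4 CPM in those of 90 days (SD of 3 libraries), a difference that did not pass (adjusted p = 0.111).

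Other leukocyte genes were highest in the library that was rich in Ighm. Summed over 15 T cell genes, 90-day sample 2 had 34.7 CPM, against 6.66 to 18.1 in the other 8 libraries. For 12 macrophage genes, led by Lyz2 and C1qb, it had 472 CPM against 210 to 379, for 10 genes of all leukocytes, led by Laptm5 and Ptprc, 176 against 85.1 to 135, and for 8 genes of lymph node stroma 9.04 against 3.19 to 4.86. The 22 B cell genes summed to 60.9 CPM in it against 40.9 to 58.1, a sum led by Ly6d and Blnk, which are not confined to B cells. Blnk fell from 30 to 90 days, with -0.55 ± 0.15 (adjusted p = 0.0434, and -0.63 with an adjusted p of 0.0806 without that library). Of the defining B cell genes, Ms4a1 was at 0 in 5 of the other 8 libraries and Pax5 in 6 of them. Of the 10 tested T cell genes, 5 had an unadjusted p under 0.05 from 30 to 90 days, where 2560 of all 15224 genes did. After adjustment edgeR called 0 of these 10, with a median log2 fold change of 1.15, or 0.46 without that library. It called 0 of 12 macrophage genes (1 unadjusted; median 0.26, or 0.01 without that library), 0 of 10 leukocyte genes (2 unadjusted; 0.36, or 0.10) and 0 of 4 tested lymph node stroma genes (1 unadjusted; 0.51, or 0.16). In the T cell list Cd3e passed the test of any difference (adjusted p = 0.0432, and 0.237 without that library, where its log2 difference of 90 from 30 days went from 2.24 to 2.10). The part of these cells in the Ighm, Igkc and Jchain levels was not tested.

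**Figure D4:**
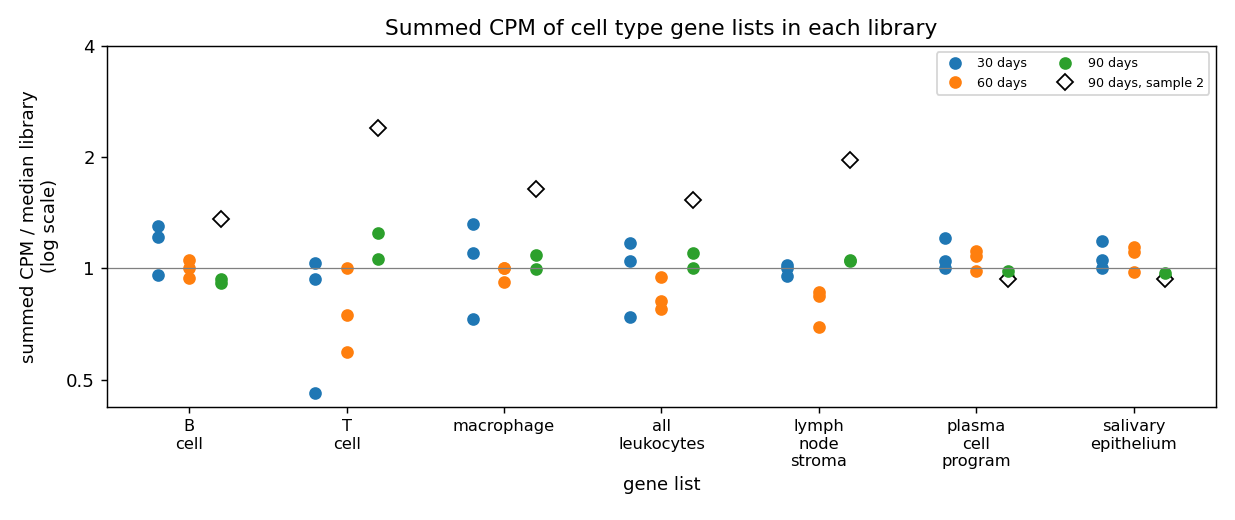
Summed CPM of 7 gene lists in each library divided by the median library (y axis, log scale), with the lists on the x axis, points coloured by time point and 90-day sample 2 as an open diamond. The diamond is the highest point for the B cell, T cell, macrophage, leukocyte and lymph node stroma lists and the lowest for the plasma cell program and salivary epithelium.

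Among all tested genes outside the members and the variable segments, those whose log2 CPM followed Igha most closely over the 9 libraries were Sv2a (Pearson correlation 0.95), AI662270 (0.93), Wdr27 (0.92), Gnpda1 (0.92) and Igip (0.92), the last named for a peptide that induces IgA. Igip measured 5.39, 5.77 and 7.96 CPM on average at 30, 60 and 90 days. Those closest to Pigr were Wdr70 (0.98), Ccnd3 (0.97), Exosc7 (0.95), Galnt10 (0.95) and Angptl6 (0.95). These are the highest of 15211 values over 9 points that share their libraries and scaling, so high values are part of the choice, and they are given as a description.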

How the data were processed

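RNA from irradiated submandibular glands was sequenced in 9 libraries, 3 each at 30, 60 and 90 days. The authors deposited raw read counts per Ensembl gene, and the submitters' processing notes name fastp, STAR, featureCounts and mm10 without versions or settings. Annotation release, strand and the treatment of reads matching several genes are not given in the sources used here. Columns were matched to samples by day and number, and 3 columns that match no listed sample were not used. Symbols were found for 54409 of 54532 identifiers. Positions and lengths come from GENCODE mouse release 21 (GRCm38), promoter windows from RefSeq (GRCm38.p6).

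Genes were filtered with filterByExpr (minimum count 10), scaled by TMM and tested with edgeR 4.0.16 quasi-likelihood (robust, all 9 libraries, Benjamini-Hochberg over 15224 genes, threshold 0.05). CPM are TMM-scaled. The correlations use a prior count of 2. R was 4.3.3, limma 3.58.1, DESeq2 1.42.0, scipy 1.17.1 and matplotlib 3.10.9. Scripts were tested on simulated data. Samples were grouped by the day in their titles, and same-numbered libraries are not said to be matched. Members and lists were chosen with earlier results of these data known. Named genes are all members, list genes with an adjusted p under 0.05 in any test, the 2 most abundant of each list, the 5 genes most like Igha and Pigr, and the most counted variable segments. Cell type markers were listed separately. Usf1, Usf2, Ifng, Il17a, Tnf, Myd88 and the IgG and IgE constant genes were named outside the rule after their values were seen. The other settings tried were median-ratio size factors, scaling by library size alone, DESeq2, limma-voom, no filter, 10 counts in every sample, the 6 samples of a contrast, a replicate block and leaving out each library. An unfiltered fit without 90-day sample 2 was added after seeing the data. Some items are not reported here.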

Additional observations from a re-analysis of the deposited data

How the results depend on the processing

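The rise of Pigr from 30 to 90 days kept its direction and its call in all 17 alternatives, with log2 fold changes of 1.06 to 1.41. Counts of called members depended on the setting. From 60 to 90 days, where the main count was 0, it was 1 with library-size scaling, with the replicate block and with the 6 samples alone, 3 with no filter and 4 with DESeq2. From 30 to 90 days it was 2 with no filter and 3 with DESeq2, and for any difference 3 and 5, against 1 in the main analysis. Leaving out 1 library gave 0 to 1 called members from 30 to 60 days, 0 to 1 from 60 to 90 days, 1 to 2 from 30 to 90 days and 1 to 2 for any difference. Over all 15399 to 15794 genes tested, the same fits called 73 to 244, 16 to 103, 184 to 703 and 220 to 683. The 6 samples alone called 34 of 15042 genes from 60 to 90 days. For any difference, the fit with no filter called 1194 of 27001 genes and DESeq2 847 of 14632.

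Signs turned for changes from 30 to 60 days that did not pass: with 30-day sample 2 left out, Igha, Igkc, Jchain and Pou2af1 were above 0, at the upper ends of ranges over the left-out libraries of -0.607 to 0.108, -0.345 to 0.386, -0.634 to 0.022 and -1.839 to 0.410. Igkc measured 0.075 with the replicate block. In the unfiltered fit without 90-day sample 2, Cd79a measured -0.79 from 30 to 90 days and -0.69 from 60 to 90 days, and Cd79b -0.13 from 60 to 90 days. For the Igha share, leaving out 90-day sample 2 turned the direction (exact permutation p = 0.421), and leaving out each library gave p-values of 0.236 to 0.961. For the Igkc share that range was 0.0571 to 0.839. The cause of these shifts was not tested.

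Whether the sample number pairs the libraries could not be decided by the check used, with 3 libraries per time point. Of 9 same-numbered pairs, 1 had deviations correlated above 0.1 (range -0.06 to 0.19). Different-numbered pairs ran from -0.21 (30-day sample 1 with 90-day sample 2) to 0.189 (30-day sample 3 with 90-day sample 2). With the replicate block the calls from 60 to 90 days over all genes rose from 39 to 92. Those from 30 to 60 days rose from 238 to 270, and those from 30 to 90 days from 544 to 717. The block gave exact permutation p = 0.972 for the Igha share and 0.5 for the Igkc share. Over all genes, library-size scaling moved the median log2 fold change to 0.24 from 30 to 90 days and to 0.18 from 60 to 90 days, where Pigr measured 1.41 and 0.69. Calls over all genes from 30 to 60, 60 to 90 and 30 to 90 days were 238, 39 and 544. They were 90, 28 and 440 with library-size scaling, 376, 150 and 867 with DESeq2, 459, 354 and 1045 with no filter, and 226, 16 and 190 without 90-day sample 2. Members under about 10 counts per library are limited by depth.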
